A study of Drosophila melanogaster with 23 samples.

Results

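The youngest and the oldest embryos of a developmental time series were compared, the 0-1 h and 1-2 h windows after egg laying against the 20-21 h, 21-22 h and 22-23 h windows, which are 5 of the 23 libraries of the series. The libraries were chosen by age alone, 2 for the egg's RNA stock and 3 for the embryo near hatching. All embryos came from Drosophila melanogaster of strain y; cn bw sp laid in population cages. They were collected over 1 hour, aged, stripped of the chorion with bleach and frozen whole, so every organ of the late embryo is mixed in 1 RNA sample. Both groups share the strain and the handling, and no treatment is given for either. RAMPAGE, which reads the 5' ends of capped RNAs, gave 1 library per window, and neighbouring reads were grouped by the authors into transcription start site clusters (TSCs), taken as promoters. Successive windows of a stage stand in for replicates here, so the errors below measure the spread between windows that also differ in age.

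A fly egg is laid with a stock of RNA and protein made by its mother's nurse cells, and its own genome is almost silent while the nuclei divide in a shared cytoplasm. That stock drives egg activation, the meiotic exit, the rapid cleavage cycles, the body axes and the germ plasm, and much of it is destroyed when the zygotic genome takes over. Shortly before hatching the embryo is a complete larva: the epidermis has secreted a cuticle of chitin and protein, the muscles contract, the nervous system is wired and the gut prepares to feed.

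The libraries held 8263691 and 14705005 reads at 0-1 h and 1-2 h, and 6887499, 901087 and 380700 reads at 20-21 h, 21-22 h and 22-23 h. A gene with 3 reads thus stood at 0.363 and 0.204 RPM (library-scaled reads, the deposited unit) in the early libraries and at 0.436, 3.33 and 7.88 RPM in the late ones, which is the level that a count of 0 still allows. Levels in RPM are given throughout in the order 0-1 h and 1-2 h, then 20-21 h, 21-22 h and 22-23 h. Across 7118 tested genes log2(RPM + 1) correlated at Pearson r = 0.990 between the early libraries, at 0.898 to 0.958 between the late ones and at 0.216 to 0.248 between an early and a late library, a description across genes of libraries from the same pool. The 22-23 h library was the shallowest and the least like its neighbours. The late RNA was more concentrated, with the 50 most abundant genes taking 41.6%, 42.1% and 32.3% of all reads against 16.6% and 17.0% at 0-2 h.

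More genes were expressed at both ages than at either age alone. At least 10 RPM, the minimum set here, was reached in all 5 libraries by 3397 of 10622 genes, in both early and no late library by 1094, and in all 3 late and no early library by 1216. After TMM scaling, which allows for very abundant late genes, these numbers were 3585, 704 and 1463. The shared genes took 87.6% and 88.7% of the reads at 0-2 h and 71.8%, 72.4% and 69.6% at 20-23 h. The exclusive sets were unlike each other in weight: genes of the early set took 4.38% and 3.96% of the early reads, and genes of the late set 22.9%, 22.4% and 24.7% of the late reads. The threshold at 22-23 h amounted to 4 reads, and 2032 further genes reached it in some libraries of a stage only.

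Of the 7118 genes with at least 10 RPM in at least 2 of the 5 libraries, limma on log2(RPM + 1) called 3761 higher at 0-2 h (52.8%) and 1778 higher at 20-23 h (25%), at an adjusted p below 0.05. The median difference over all tested genes, 20-23 h minus 0-2 h, was -1.08 on that scale with library totals and -0.36 after TMM scaling, and the scaling thus moved the median by 0.72. TMM calls were 2390 higher at 0-2 h and 2163 at 20-23 h, so that early genes made up 67.9% of calls with library totals and 52.5% with TMM. In what follows a gene is said to be higher at a stage only where both scalings called it, which held for 2390 genes at 0-2 h (33.6%) and 1778 at 20-23 h (25%). No gene was called in opposite directions by the scalings. Without any test, 59.6% of the genes lay higher in every early than in every late window and 26.9% lower, and of the TSCs 58.1% and 28.7%. On recovered reads the edgeR quasi-likelihood test called 2747 early and 2248 late genes, and DESeq2 1891 and 2525, so that with DESeq2 early genes were the minority of calls (42.8%). In bulk RNA of whole embryos, fewer cells of a type and less RNA per cell cannot be told apart.

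**Figure D1:**
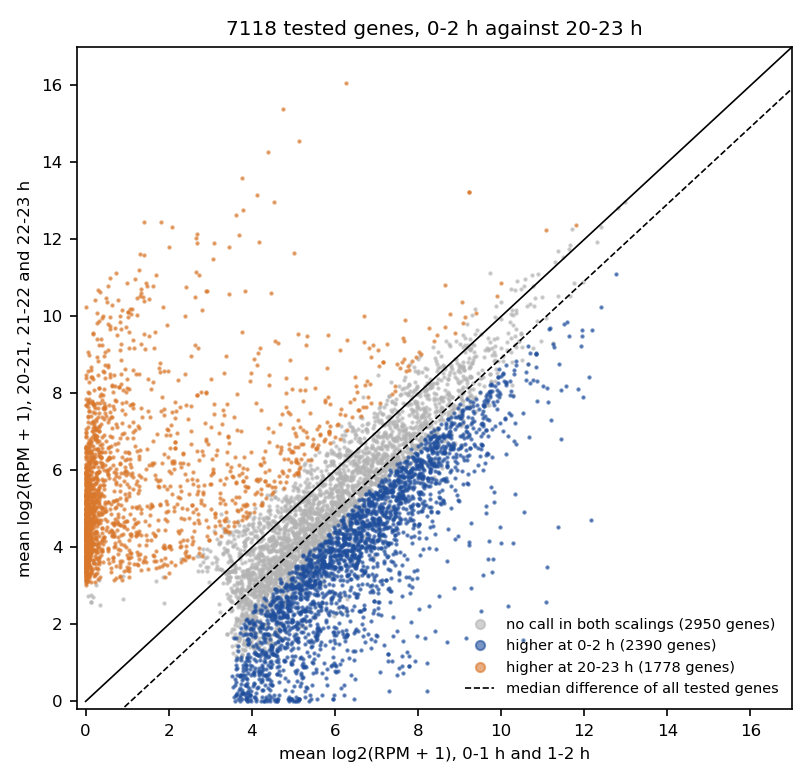
Each point is 1 of 7118 tested genes, placed by its mean log2(RPM + 1) over the 2 early libraries (horizontal) and over the 3 late libraries (vertical), with the solid line at equality and the dashed line at the median difference of -1.08. Blue genes (2390) were higher at 0-2 h and orange genes (1778) higher at 20-23 h under both scalings, and a column of orange points stands at the left edge, where late genes had few or no early reads.

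The markers of both ages stood where the labels put them. Among the egg markers, osk, which organises the germ plasm at the posterior pole, had 803 and 655 RPM early and 4.50, 1.11 and 10.5 RPM late. For bcd, the anterior patterning gradient, the levels were 461 and 512 RPM early and 92.9, 62.1 and 44.7 RPM late. The germ cell gene nanos had 82.0 and 65.8 RPM early and 0.145, 1.11 and 0 RPM late, pgc, which silences transcription in the forming germ cells, had 350.0 and 253 RPM early and 0.726, 0 and 0 RPM late, and gcl, needed to form those cells, had 680.3 and 519 RPM early and 131, 92.1 and 139 RPM late. All 5 were higher at 0-2 h with no overlap of the stages, and the late residue differed between them, as bcd and gcl kept over 40 RPM in every late library while pgc had 5 reads in all of them together.
On the late side Act57B, an actin of larval muscle, had 12.7 and 10.1 RPM early and 8213, 7158 and 4324 RPM late. The myosin heavy chain gene Mhc had 7.14 and 4.49 RPM early and 4905, 4581 and 452 RPM late, with the 22-23 h library far below its neighbours, and ple, the tyrosine hydroxylase of cuticle tanning, had 1.21 and 0.952 RPM early and 814, 574 and 412 RPM late. Ddc, the dopa decarboxylase that follows it, had no read at 0-2 h and 16.4, 18.9 and 21.0 RPM at 20-23 h, at least 144-fold higher against a floor of 3 reads over both early libraries.

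**Figure D2:**
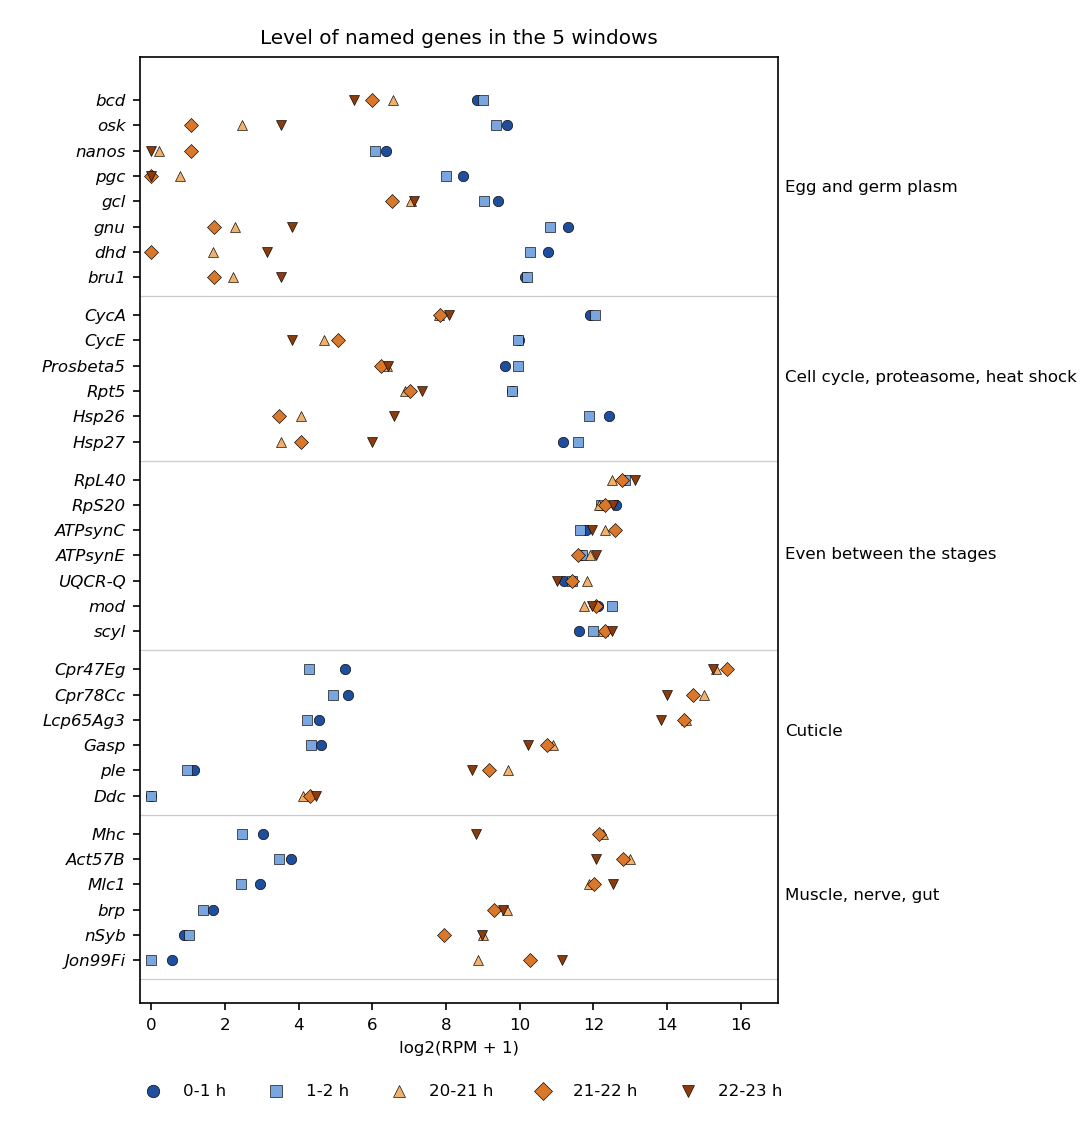
Levels of named genes in the 5 windows as log2(RPM + 1), one row per gene, blue for 0-1 h and 1-2 h and orange to brown for 20-21 h, 21-22 h and 22-23 h. Egg genes and cuticle, muscle, nerve and gut genes separate by stage without overlap, while the points of each gene of the middle block, RpL40 and RpS20 among them, lie within a 2-fold range. Mhc at 22-23 h lies apart from the other late windows.

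The genes that differed most toward the egg included some known to act at fertilisation, in meiosis and in the germ plasm. The largest difference was that of dhd, a thioredoxin of the germ line that helps to unpack the sperm chromatin, with 1727 and 1249 RPM early and 2.18, 0 and 7.88 RPM late (-8.92 ± 0.83 (SE) on the log2 scale, limma adjusted p = 0.000106). Next came gnu, a subunit of the Pan gu kinase that switches on translation at egg activation, with 2531 and 1823 RPM early and 3.77, 2.22 and 13.1 RPM late (-8.48 ± 0.60 (SE), adjusted p = 3.58e-05). The stages were far apart for each of them, and the highest late value, in the shallow 22-23 h library, rested on 3 reads for dhd and 5 for gnu. The other genes of the 10 with the largest early differences were pgc, bru1, a repressor of osk translation, mtrm, an inhibitor of Polo kinase in meiosis, BicC, an RNA-binding regulator of translation, Hsp26, Mov10, halo and osk. For bru1 the levels were 1119 and 1178 RPM early and 3.63, 2.22 and 10.5 RPM late. For mtrm they were 2205 and 2159.9 RPM early and 11.0, 4.44 and 21.0 RPM late. The spread was widest for BicC, with 639 and 511 RPM early and 0.871, 0 and 15.8 RPM late (-7.50 ± 1.09 (SE)), whose 22-23 h value rested on 6 reads. The gene halo, which directs the transport of lipid droplets after zygotic transcription begins, was the one of these that stood higher at 1-2 h than at 0-1 h by about 2-fold, with 284 and 604 RPM early and 0.871, 1.11 and 5.25 RPM late.

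Of the 10 most abundant genes higher in the egg, all but Hsp26 stayed above 100 RPM in every late library. Hrb27C, an RNA-binding protein of the hnRNP group, had 7663 and 6319 RPM early and 1842, 2532 and 2309 RPM late (-1.66 ± 0.23 (SE), adjusted p = 0.000675). Sumo, the small ubiquitin-like modifier, had 5176 and 5638 RPM early and 1023, 989 and 1744 RPM late. Nlp, a nucleoplasmin-like histone chaperone, had 4026 and 3885 RPM early and 695, 786 and 925 RPM late, and HmgD, a chromosomal protein abundant in cleavage-stage chromatin, had 3029 and 4533 RPM early and 299, 279.7 and 252 RPM late. The ratio of stage means was 3.14-fold for Hrb27C, 4.32-fold for Sumo and 13.7-fold for HmgD. The remaining members of that group of 10 were Jupiter, a microtubule-associated protein, Hsp26, CycA, Non2, atos and FBgn0040954. Jupiter had 5310.2 and 4059 RPM early and 1019, 1278 and 405 RPM late, uneven among the late windows. Hsp26, also among the 10 largest differences, had 5540.4 and 3742 RPM early and 15.8, 9.99 and 94.6 RPM late.

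Genes of egg patterning and germ plasm were higher in the egg for 14 of 22 tested members (26 were in the table). That is 63.6%, beside 33.6% of all tested genes, and the median difference was -2.25 beside -1.08 over all tested genes. cad, the posterior homeobox gene of the egg, had 387 and 442 RPM early and 48.1, 38.8 and 76.2 RPM late. The single member higher at 20-23 h was pip, a sulfotransferase used in the ovary for the dorsal-ventral axis and later in salivary gland, with 3.15 and 1.43 RPM early and 39.6, 20.0 and 7.88 RPM late (named after its values were seen, as are other genes outside the rule given under processing). Of the genes for egg activation and control of maternal mRNA, 19 of 23 were higher in the egg (82.6%, beside 33.6% of all tested genes). None was higher late (median -3.04). The partners of gnu in the Pan gu kinase went with it: png had 39.3 and 29.9 RPM early and 0.145, 0 and 0 RPM late and plu had 179.7 and 158 RPM early and 1.60, 1.11 and 5.25 RPM late. The translational repressors kept a late level instead. me31B, an RNA helicase, had 2468 and 2235 RPM early and 137, 131 and 221 RPM late, tral, which binds it, had 1620.2 and 2123 RPM early and 199, 185 and 305 RPM late, and smg, the Smaug protein that sends maternal mRNA to decay, had 1249 and 1082 RPM early and 206, 135 and 202 RPM late. The members without a call in both scalings were BicD, Not1, fs(1)K10 and sra.

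The cell cycle list moved as a block. All 30 tested members were called higher at 0-2 h with library totals and 29 with both scalings, with a median of -3.81. Over all tested genes these shares were 52.8% and 33.6%. Mcm7, a subunit of the replicative helicase, was the member that TMM did not call (limma adjusted p = 0.0509). In this list 14 members reached 10 RPM at 0-2 h only and 13 in all 5 libraries, so the count follows in part from the filter. CycA, the mitotic A cyclin, had 3838 and 4187 RPM early and 223, 229 and 271 RPM late (-4.06 ± 0.22 (SE), adjusted p = 1.05e-05). CycE, the cyclin of S phase entry, had 1008 and 995 RPM early and 24.7, 32.2 and 13.1 RPM late, and twe, a Cdc25 phosphatase of meiosis, had 486 and 436 RPM early and 93.5, 83.2 and 102 RPM late. lok, the Chk2 kinase of the DNA damage checkpoint, had 679.7 and 519 RPM early and 12.2, 13.3 and 23.6 RPM late. The stages did not overlap for any of these 4 genes, and CycA and twe retained a late level of about 80 to 270 RPM while CycE and lok fell below 35 RPM.

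The proteasome, which degrades ubiquitin-tagged proteins, was higher in the egg for every tested subunit, 31 of 31, against 33.6% of all tested genes. Its median difference was -3.17, and its summed level was 6893 and 7182 RPM early and 767, 741 and 1001 RPM late. Prosbeta5, a catalytic subunit, had 774 and 983 RPM early and 83.5, 74.4 and 84.1 RPM late (-3.42 ± 0.23 (SE), adjusted p = 2.84e-05), and Rpt5, an ATPase of the regulatory cap, had 892 and 879 RPM early and 117, 128 and 163 RPM late. The subunits were alike, with differences between -4.06 for Rpn2 and -2.45 for Rpt3. The 3 members that were not tested stayed under 10 RPM in all 5 libraries.

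Heat shock proteins split. Of 17 tested members 10 were higher in the egg (58.8%, beside 33.6% of all tested genes) and 3 later (17.6%, beside 25%). Beside Hsp26 the small chaperone gene Hsp27 had 2296 and 3039.7 RPM early and 10.5, 15.5 and 63.0 RPM late and Hsp83, the fly Hsp90, had 2085 and 2021 RPM early and 203, 235 and 525 RPM late. The late members were Hsp68, with 7.87 and 7.48 RPM early and 18.0, 27.7 and 44.7 RPM late, Hsp67Bc, with 1.21 and 1.22 RPM early and 45.3, 42.2 and 47.3 RPM late, and Hsc70-1, with no early read and 24.5, 26.6 and 26.3 RPM at 20-23 h. The counts include Hsp22 and CG4456, which had identical values. Hsp26, Hsp27 and Hsp83 shared a 22-23 h level above that of the other late windows. Between the ages stood the mitochondrial chaperones Hsp60A, with 81.4 and 56.2 RPM early and 40.7, 63.3 and 44.7 RPM late, and Hsc70-5, with 42.6 and 37.1 RPM early and 31.9, 35.5 and 39.4 RPM late, which neither scaling called.

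Most genes of the cytoplasmic ribosome and some of respiration were among those that the stages held in common at like levels. In 594 of the 3397 genes at both stages the highest of the 5 levels was less than 2 times the lowest. Both scalings called 5 of these higher at 20-23 h, and library totals alone called another 30 higher at 0-2 h. The 594 held 52 of 77 tested genes of the cytoplasmic ribosome and 20 of 64 of respiration. They held 8 of 69 of the mitochondrial ribosome and 6 of 35 translation factors. Among the most abundant of the 594 were RpL40, RpS20 and RpL37-1 of the ribosome, ATPsynC, ATPsynE and UQCR-Q of the mitochondrial inner membrane, mod, a nucleolar and chromatin protein, scyl, a restraint on growth through TOR, and FBgn0037636. RpL40 had 7144 and 7349 RPM early and 5783, 7066 and 9020.2 RPM late (-0.02 ± 0.25 (SE), limma adjusted p = 0.958), with overlapping stages. For RpS20 the levels were 6307 and 4716 RPM early and 4532, 5075 and 5866 RPM late, which overlapped as well. TMM placed RpL40 and RpS20 higher at 20-23 h instead, at 0.74 and 0.66 (limma adjusted p = 0.00895 and 0.0159), so the direction for these genes rests on the scaling. scyl was the one of those named that both scalings called, higher at 20-23 h, with 3128 and 4069 RPM early and 4948, 5123 and 5829 RPM late (0.57 ± 0.22 (SE), adjusted p = 0.0484, and 1.32 with TMM, adjusted p = 0.00170).

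Of 77 tested genes of the cytoplasmic ribosome, 75 were above 10 RPM in all 5 libraries and 52 were among the 594 even genes. Their sum was 66345 and 57687 RPM early and 51878, 55369 and 65539.8 RPM late, with overlapping stages, and their median difference was -0.21 (0.54 with TMM). The only calls were a pair of paralogs that code for the same small-subunit protein and went opposite ways. RpS5b had 146 and 108 RPM early and 4.65, 6.66 and 10.5 RPM late (-3.29 with TMM, limma adjusted p = 0.000177), and RpS5a had 65.7 and 45.8 RPM early and 131, 159 and 165 RPM late (1.44 ± 0.27 (SE), adjusted p = 0.00241). Without the 22-23 h library 2 ribosomal genes in place of 1 were called higher in the egg. Reads of such near-identical copies can be split unevenly by mapping, and that part was not tested. In the mitochondrial ribosome 5 of 69 genes (7.25%, beside 33.6% of all tested genes) were higher in the egg and none late (median -0.82). mRpL1 had 446 and 581 RPM early and 242, 234 and 249.5 RPM late, a difference of -1.07 ± 0.23 (SE) that both TMM and DESeq2 left without a call, at -0.32 and 0.0052.

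Genes of the respiratory chain and ATP synthase were called late in a share not far from that of all genes, and none was called early. Among 64 tested nuclear genes 21 were higher at 20-23 h (32.8%, beside 25% of all tested genes) and none at 0-2 h (beside 33.6%). All 64 were above 10 RPM in every library, and the median was 0.51 with library totals and 1.26 with TMM, against -1.08 and -0.36 over all genes. ATPsynC, the ring subunit of the proton channel, had 3591 and 3154 RPM early and 5121, 6100.4 and 3961 RPM late (adjusted p = 0.0722, 0.00981 with TMM). COX6B of cytochrome oxidase had 2915 and 2433 RPM early and 3583, 2131 and 4754 RPM late and overlapped between the stages. In the V-ATPase, the proton pump of acidic organelles and gut, 8 of 15 genes were higher late (53.3%, beside 25% of all tested genes), Vha16-1 with 261 and 257 RPM early and 603, 433 and 602 RPM late. Genes of glycolysis and the TCA cycle were mostly without a call, 17 of 20. The 3 called ones were late (15%, a smaller share than the 25% of all tested genes): Ald1, aldolase, with 120.2 and 120.2 RPM early and 653, 793 and 447 RPM late, kdn, citrate synthase, with 10.6 and 9.52 RPM early and 47.2, 83.2 and 63.0 RPM late, and Ldh, lactate dehydrogenase, with 0.726 and 0.340 RPM early and 37.6, 44.4 and 23.6 RPM late. Eno, enolase, had 361 and 324 RPM early and 153, 206 and 202 RPM late, an early difference that library totals called, TMM did not (adjusted p = 0.0135 and 0.595) and DESeq2 placed late, at 0.21 without a call. Among translation factors 6 of 35 (17.1%, beside 33.6% of all tested genes) were higher in the egg and none late, eIF4E1, which binds the cap, with 1572 and 1758 RPM early and 355, 265 and 305 RPM late.

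**Figure D3:**
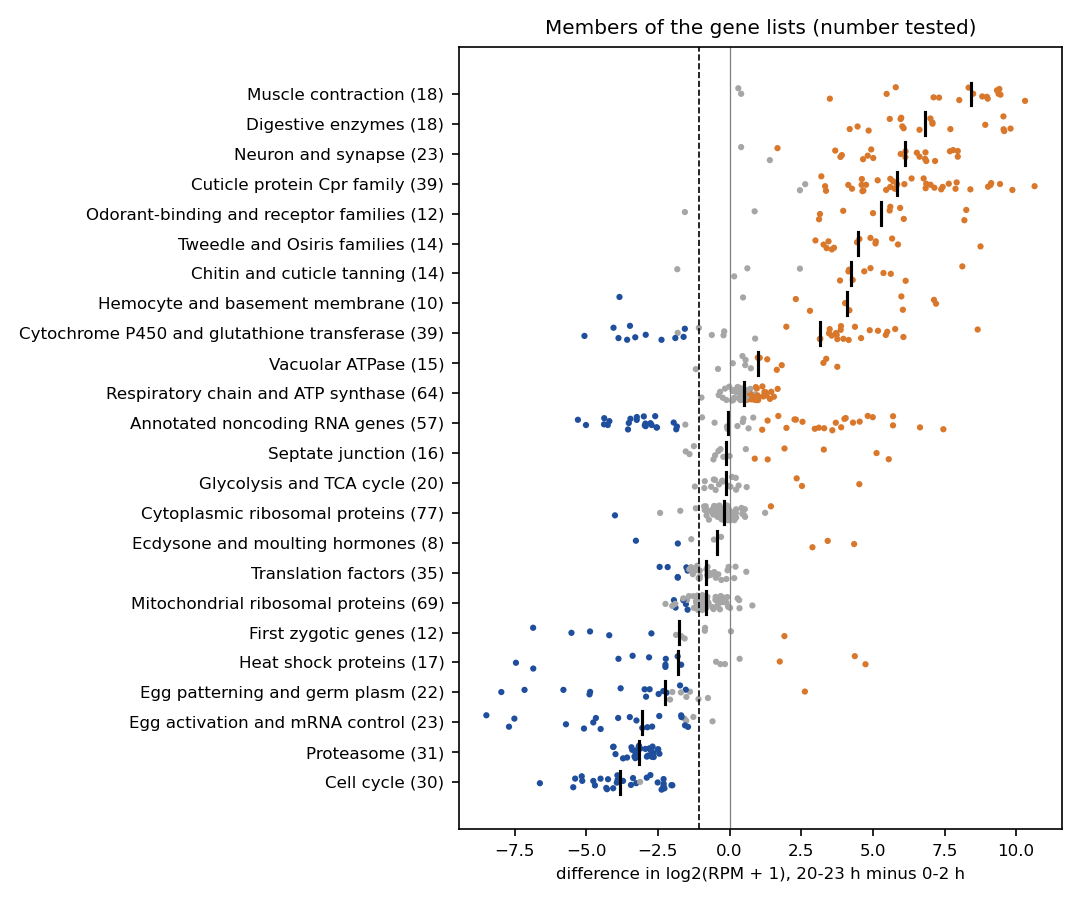
Each point is a tested member of a gene list, placed by its difference in log2(RPM + 1), 20-23 h minus 0-2 h, with blue for higher at 0-2 h, orange for higher at 20-23 h and grey for no call in both scalings. Black ticks mark the median of each list, the dashed line the median of all 7118 tested genes (-1.08), and the vertical scatter within a row has no meaning. The medians of the proteasome (-3.17) and cell cycle (-3.81) lie left of the dashed line, those of the ribosomal (-0.21) and respiratory genes (0.51) near 0, and that of muscle (8.42) farthest to the right.

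Cuticle proteins were among the most abundant RNAs of the late embryo. Cpr genes, which code for chitin-binding structural proteins, had a summed level of 173 and 124 RPM early and 123002, 122411 and 83068 RPM late, and every late sum was far above the early ones. Of 39 tested members 37 were higher at 20-23 h, against 25% of all tested genes, with a median of 5.85. Only 5 members reached 10 RPM in all 5 libraries, while 30 did so at 20-23 h only and 0 at 0-2 h only. Most thus passed the filter of 10 RPM through the late libraries, and the count follows largely from that. 33 of the 76 members in the table stayed under 10 RPM in all 5 libraries. Cpr47Eg had 36.9 and 18.4 RPM early and 41204, 50339 and 39120 RPM late (10.64 ± 0.32 (SE), adjusted p = 2.43e-06). Cpr78Cc had 39.6 and 29.3 RPM early and 32966, 26613 and 16325 RPM late, Lcp65Ag3 had 22.6 and 17.8 RPM early and 23214, 22698 and 14484 RPM late, and its neighbour Lcp65Ag2 had 20.1 and 13.5 RPM early and 12705, 14139.6 and 4163 RPM late. Cpr35B and Cpr65Ec were the members without a call, each with 0 reads at 22-23 h. The Lcp65Ag genes are near-identical copies, so reads may be shared between them, which was not tested.

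Other abundant late genes have no assigned role here. CG30457 was the most abundant RNA at 20-21 h and 21-22 h, with 97.8 and 59.6 RPM early and 91918, 101137 and 34773 RPM late (9.79 ± 0.49 (SE), adjusted p = 9.28e-06), while at 22-23 h it stood below Cpr47Eg. CG15282 had 12.6 and 12.4 RPM early and 9058, 11683 and 17534 RPM late and CG14989 had 20.7 and 23.9 RPM early and 6970.0, 6633 and 11195 RPM late, both highest at 22-23 h. The largest difference of all was that of CG9757, with 2.06 and 1.29 RPM early and 3153, 6371 and 8965 RPM late (11.06 ± 0.44 (SE), adjusted p = 3.95e-06), followed by Cpr47Eg, CG13545, CG15021, CG14265, CG5023, Mf, CG13947, CG9759 and CG18649. CG9759 had no early read and 422, 1339 and 3194 RPM late, at least 12648-fold higher against the floor of 3 reads over both early libraries. CG14265, with 0.121 and 0.340 RPM early and 642, 1590.3 and 4405 RPM late, and CG13947, with 0.363 and 0.204 RPM early and 438, 1778 and 5133 RPM late, were likewise highest in the oldest window. Mf, the thick-filament protein myofilin, was even across the late windows, with 2.30 and 0.884 RPM early and 2928, 3371 and 3205 RPM late. The pair lncRNA:CR42862 and CG33229 had nearly the same values, 546 and 659.7 RPM early and 12800.4, 11246 and 6275 RPM late for the latter, because 99.9% and 100% of their reads came from TSCs assigned to both.

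The enzymes that build and harden the cuticle followed. 10 of 14 tested genes of chitin and tanning were higher late and none early, beside 25% and 33.6% of all tested genes (median 4.23). At 20-23 h only, 8 members reached 10 RPM, with 0 at 0-2 h only and 3 in all 5 libraries. The late count thus follows in large part from the filter of 10 RPM. Gasp, a chitin-binding protein of the tracheal and epidermal matrix, had 23.4 and 19.2 RPM early and 1897, 1695 and 1195 RPM late, and serp, a chitin deacetylase, had 3.75 and 3.13 RPM early and 269.6, 162 and 236 RPM late. kkv, the chitin synthase, had 0.605 and 0.952 RPM early and 62.3, 67.7 and 89.3 RPM late. The Tweedle and Osiris families, which belong to the cuticle and its secretion, had 14 tested members of 39 in the table, 13 of them Tweedle genes. All 14 were higher at 20-23 h, beside 25% of all tested genes. No member reached 10 RPM in all 5 libraries or at 0-2 h only, so the count follows largely from the filter. Within the late stage the families were uneven, as TwdlN had 1765, 1254 and 268 RPM and TwdlB 269, 44.4 and 28.9 RPM in the 3 late windows while TwdlW had 109, 47.7 and 118 RPM. Idgf4, a chitinase-like growth factor, was present throughout, with 64.9 and 79.3 RPM early and 118, 95.4 and 121 RPM late.

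Contractile genes gave the largest median of the lists, and nerve genes were late as well. For muscle, 16 of 18 genes were higher late (88.9%, beside 25% of all tested genes), with a median of 8.42. In this list 11 members reached 10 RPM at 20-23 h only, 0 at 0-2 h only and 3 in all 5 libraries. The muscle count thus follows in large part from the filter of 10 RPM. TpnC73F, a troponin C, had 19.5 and 8.30 RPM early and 6454, 5665 and 9259 RPM late, TpnC47D had 10.3 and 5.44 RPM early and 4606, 7250.1 and 1699.5 RPM late, and Mlc1, a myosin light chain, had 6.66 and 4.35 RPM early and 3736, 4109 and 5863 RPM late. The late windows were not alike, since Mhc and TpnC47D were lowest at 22-23 h and TpnC73F and Mlc1 highest there. Argk1 and Tm1, the members without a call, changed in promoter use. For neurons 21 of 23 genes were higher late (91.3%, beside 25% of all tested genes, median 6.13). At 20-23 h only, 20 members reached 10 RPM, with 0 at 0-2 h only and 2 in all 5 libraries. The neuron count follows largely from the filter as well. brp, the scaffold of the active zone, had 2.18 and 1.63 RPM early and 804, 624 and 746 RPM late (7.96 ± 0.25 (SE), adjusted p = 2.67e-06), cpx, complexin, had 1.82 and 1.22 RPM early and 534, 679 and 667 RPM late, and nSyb, the synaptic vesicle synaptobrevin, had 0.847 and 1.02 RPM early and 511, 246 and 499 RPM late. elav, the standard neuronal marker, was low in this assay, with 2.06 and 3.20 RPM early and 9.73, 11.1 and 10.5 RPM late. Syx1A, the plasma membrane syntaxin, was abundant in the egg as well, with 673 and 1056 RPM early and 3515, 3184 and 1001 RPM late, and did not pass the test with library totals (adjusted p = 0.0518).

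Digestive enzymes were nearly absent from the egg's RNA. All 18 tested digestive enzymes, of 30 in the table, were higher at 20-23 h, beside 25% of all tested genes. No member reached 10 RPM at 0-2 h, so all 18 passed the filter through the late libraries, and the count follows largely from that. The summed level of the list was 2.54 and 0.612 RPM early and 3535, 7165 and 8206 RPM late. The Jonah serine proteases led it: Jon99Fi had 0.484 and 0 RPM early and 463, 1236 and 2248 RPM late, Jon25Bi 0.363 and 0.0680 RPM early and 423, 1438 and 1239.8 RPM late and Jon25Biii 0.605 and 0.0680 RPM early and 1037, 1509 and 644 RPM late. alphaTry, a trypsin, had 0.121 and 0 RPM early and 275, 621 and 788 RPM late, and Amy-p, an amylase, had 0 and 0.0680 RPM early and 72.7, 175 and 210.1 RPM late. At 0-2 h 22 and 24 of the 30 members had no read. Several were lower at 20-21 h than in the later windows, among them Jon99Fi, Jon99Fii and Amy-p, and the summed level was lowest there. Jonah genes are close copies, and the sharing of reads among them was not tested.

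Odorant-binding proteins were also present before hatching. 10 of 12 tested chemosensory genes were higher late (83.3%, beside 25% of all tested genes), all of them Obp genes. Obp56d had 1.57 and 0.884 RPM early and 601, 650.3 and 783 RPM late. Obp28a had 0.847 and 0.136 RPM early and 362, 482 and 433 RPM late. 23 of 36 members in the table never reached 10 RPM and none did so in all 5 libraries, so the late count follows largely from the filter. Detoxifying enzymes divided by gene: of 39 tested cytochrome P450 and glutathione transferase genes 22 were higher late and 11 early (56.4% and 28.2%, beside 25% and 33.6% of all tested genes). Cyp28d2 had 0.484 and 0 RPM early and 382, 586 and 528 RPM late and GstE3 2.78 and 2.38 RPM early and 140.4, 233 and 415 RPM late, whereas Cyp6v1 had 328 and 347 RPM early and 20.2, 27.7 and 13.1 RPM late. Cyp6a19 had 32.1 and 32.6 RPM in the egg and no read in any late library.

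Basement membrane genes were late. 8 of 10 tested genes of blood cells and basement membrane were higher at 20-23 h (80%, beside 25% of all tested genes). All 8 code for matrix proteins. In this list 6 members reached 10 RPM at 20-23 h only, 0 at 0-2 h only and 2 in all 5 libraries, so the count follows largely from the filter. Col4a1, a chain of type IV collagen, had 0.363 and 0.340 RPM early and 209, 194 and 192 RPM late. Its partner chain vkg had 0.968 and 0.340 RPM early and 223, 214 and 244 RPM late, similar to Col4a1 in every late window. Ndg, nidogen, had 1.82 and 1.84 RPM early and 262, 199 and 123 RPM late. The member higher in the egg was crq, a scavenger receptor of the phagocytes, with 161 and 149 RPM early and 12.3, 9.99 and 7.88 RPM late. In the septate junction, the seal between epithelial cells, 6 of 16 genes were higher late (37.5%, beside 25% of all tested genes) and 10 had no call. cora had 2.54 and 2.86 RPM early and 188, 209 and 131 RPM late and Nrg, neuroglian, 92.6 and 116 RPM early and 999.9, 837 and 1277 RPM late, while Cont, its partner contactin, had 149 and 168 RPM early and 171, 148 and 99.8 RPM late, with overlapping stages.

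Hormone genes pointed both ways. usp, the partner of the ecdysone receptor, had 1205 and 1093 RPM early and 101, 101 and 163 RPM late, but 48.9% of its reads came from a TSC that was also assigned to Actn. ftz-f1, a nuclear receptor supplied to the egg, had 220.1 and 208 RPM early and 83.0, 44.4 and 60.4 RPM late. Eip75B, an early ecdysone response gene, had 16.1 and 13.3 RPM early and 571, 425 and 131 RPM late (4.35 ± 0.60 (SE), adjusted p = 0.000604), lowest of the late windows at 22-23 h. ETH, the hormone that triggers the moulting behaviour, had no read in the egg and 10.7, 4.44 and 18.4 RPM late, which rests on 4 reads at 21-22 h, and Eip74EF had 21.6, 2.22 and 10.5 RPM late. Without the 22-23 h library 1 early gene of this list was called in place of 2. EcR itself had 98.3 and 114 RPM early and 118, 119.9 and 44.7 RPM late, with overlapping stages. Of the annotated noncoding genes 57 were tested and 23 were higher early and 23 late (40.4% each way, beside 33.6% and 25% of all tested genes). lncRNA:Hsromega, the heat shock RNA omega of the nucleus, had 12.6 and 23.6 RPM early and 589, 649 and 517 RPM late, and lncRNA:CR43314 had 13.6 and 18.2 RPM early and 466, 492 and 459.7 RPM late.

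The early libraries already held RNA of the first zygotic genes. Of 20 such genes 12 were tested, and 5 were higher at 0-2 h (41.7%, beside 33.6% of all tested genes) and 1, hry, at 20-23 h. bnk, which stabilises the furrows of the cellularising blastoderm, had 191 and 247 RPM early and 0.871, 0 and 2.63 RPM late, slam 86.2 and 121 RPM early and 6.53, 5.55 and 2.63 RPM late, ftz 36.9 and 59.2 RPM early and 0.145, 0 and 0 RPM late and nullo 30.5 and 28.6 RPM early and 0.145, 0 and 0 RPM late. The summed level of the list was 600.1 RPM at 0-1 h and 939.6 RPM at 1-2 h, and most members stood higher at 1-2 h than at 0-1 h. sna had 93.9 and 183 RPM early and 93.1, 94.3 and 42.0 RPM late and Kr 39.3 and 90.4 RPM early and 42.4, 31.1 and 26.3 RPM late, and the stages overlapped for both. RNA of the mother's follicle cells was near the floor. 3 vitelline membrane genes were in the table, with at most 1.16 RPM in any of the 5 libraries (Vm26Aa, 0.726 and 1.16 RPM at 0-2 h), and their part in the early levels was not tested further.

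The strongest TSCs of late genes had fewer reads and were narrower than those of early genes. In genes higher at 0-2 h the strongest TSC had a median width of 102 bases (interquartile range 82 to 132), and in genes higher at 20-23 h 61 bases (27 to 114), with 100 bases (79 to 129) in the genes without a call. Clusters with more reads were wider, and the median reads of the strongest TSC were 2017 for early and 355 for late genes. Between 100 and 1000 reads the medians were 82 bases (n = 735) and 53 bases (n = 1132), between 1000 and 10000 reads 108 (n = 1380) and 94 (n = 383), and from 10000 reads upward 141 (n = 275) and 143 bases (n = 84). These ranges did not match the read numbers, since within them the early and late medians were 578 and 273 reads, 2777 and 2003, and 17268 and 19741, so width cannot be told apart from read number here. The clusters had been drawn on reads of the whole series, and no test was made.

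Late genes lay beside another late gene in a larger share than all tested genes did. Among tested genes with another tested gene's start within 5000 bases, 46.0% of the late genes (n = 803) had a late gene beside them, against 18.8% of all such genes (n = 4725), while 51.0% of the early genes (n = 1837) had an early neighbour against 46.4% of all. The longest runs of adjacent late genes held 6 genes. One was the cuticle cluster Lcp65Ag3, Lcp65Ag2, Lcp65Ag1, Lcp65Af, Cpr65Av and Lcp65Ac at chr3L:6124088-6137931 (dm3). Another was CG5773, CG5770, CG5767, CG14495, Muc55B and CG10912 at chr2R:13931168-13944556. A run of 5 at chr2R:14270736-14275579 consisted of the immune-induced Bomanin genes BomBc1, BomS1, BomBc2, BomS2 and BomS3. By chromosome, 37.2% of the tested X-linked genes were early and 21.4% late (n = 1189), the autosomal arms lay between 32.2% and 34.6% early and between 23.8% and 26.8% late, and the small chromosome 4 had 8.70% early and 37.7% late genes (n = 69). These shares are descriptions without a test, and duplicated genes are not independent.

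Most genes expressed at both stages had the same strongest promoter, but few had a second one of 10 RPM. The strongest TSC was the same in 3185 of the 3397 shared genes (93.8%). In 2875 of the shared genes only 1 TSC reached a mean of 10 RPM at 0-2 h, so this share largely reflects genes without such a choice. In 511 of the shared genes 2 or more TSCs reached a mean of 10 RPM at 0-2 h, and in 421 at 20-23 h. The agreement within those 511 genes is not given here. Of 944 genes whose 2 strongest TSCs both reached 10 RPM at one stage or the other, limma on the log2 ratio of their reads called 426 (45.1%) at an adjusted p below 0.05. The stronger TSC differed between the stages in 201 of them, and in 178 of these neither TSC was assigned to a second gene. The TSC that gained share late lay downstream of the other in 268 and upstream in 158 of the called genes, at a median distance of 2728 bases. In the tested genes without a call the median distance was 2085 bases. Directions in those genes are not given here, so the excess downstream cannot be tied to the called genes. For 234 of the 426 genes the level of the whole gene was not called in both scalings, while 97 were higher at 0-2 h and 95 at 20-23 h. Over all tested genes 33.6% were higher at 0-2 h and 25% at 20-23 h. The shares among the 944 genes are not given here, so this count cannot be tied to the change in promoter use. The count was 263 without the 20-21 h library, 356 without 21-22 h, 383 without 22-23 h, 580 without 0-1 h and 470 without 1-2 h, and 280 with all libraries thinned to 380700 reads.
At the level of single TSCs, 4247 of 8238 tested were higher at 0-2 h (51.6%) and 2229 at 20-23 h (27.1%) when scaled by library totals, 2741 (33.3%) and 2229 (27.1%) with both scalings, and 2120 and 2994 with DESeq2.

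The 8 genes named by rule follow, with Tm1 beside them. The egg's stock of RNA was made by the mother's nurse cells, so an egg TSC need not mark a promoter active in the embryo. Argk1, arginine kinase, which buffers ATP in muscle, was made in the egg from chr3L:9056006-9056112 (minus strand, coordinates in dm3) and in the late embryo from chr3L:9050648-9050727, 5372 bases downstream between the cluster centres. The share of the late TSC went from 0.352% and 0.676% early to 97.9%, 99.7% and 100% late (log2 ratio change 13.33 ± 0.53 (SE), limma adjusted p = 3.54e-05). Its egg TSC had 1097 and 270.0 RPM early and 9.00, 2.22 and 0 RPM late, and its late TSC 3.87 and 1.84 RPM early and 413, 769 and 638 RPM late, so the gene's total overlapped between the stages while its promoter did not. Actn, the alpha-actinin of the Z disc, showed the same exchange, from 0.450% and 0.339% early to 97.1%, 97.1% and 96.6% late for the TSC at chrX:1930470-1930704 (13.03 ± 0.28 (SE), adjusted p = 1.23e-05), but its egg TSC at chrX:1936227-1936385 was also assigned to usp. SERCA, the calcium pump of the sarcoplasmic reticulum, moved to a TSC 2234 bases upstream at chr2R:19823150-19823614, with a share that went from 0.517% and 0.282% early to 84.4%, 84.7% and 92.7% late (10.48 ± 0.57 (SE), adjusted p = 8.16e-05). Tm1, a tropomyosin (outside the 8 genes of the rule), went from 0.521% and 0.158% early to 60.7%, 64.0% and 61.3% late (8.73 ± 0.65 (SE), adjusted p = 0.000219), with 0.605 and 0.204 RPM early and 95.7, 96.6 and 99.8 RPM late from the late TSC.

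Men, the malic enzyme, was read in the egg from chr3R:8548128-8548298 and late from chr3R:8545491-8545527, and the share of the latter went from 1.25% and 1.13% early to 99.0%, 99.0% and 99.2% late (12.93 ± 0.34 (SE), adjusted p = 1.57e-05). SCaMC, a mitochondrial carrier of ATP, went from 0.396% and 0.209% early to 88.9%, 90.1% and 93.2% late for a TSC 6212 bases downstream, at chr3L:12401635-12401784 (11.43 ± 0.41 (SE), adjusted p = 2.94e-05). The largest distance among the 8 genes was that of mtd, an oxidation resistance gene, whose late TSC at chr3R:1175714-1175737 lies 26179 bases upstream of its egg TSC and went from 0.0693% and 0.0557% early to 57.8%, 66.9% and 86.6% late (10.95 ± 1.37 (SE), adjusted p = 0.00151). Its egg TSC was still read late, with 349 and 366 RPM early and 101, 64.4 and 23.6 RPM late. CG3630 changed from a weak egg TSC with 16.7 and 15.6 RPM early and 0, 0 and 2.63 RPM late to one with 0.242 and 0.136 RPM early and 431, 547 and 331 RPM late, and its early share rested on 2 reads of the late TSC in each early library (14.51 ± 1.81 (SE), adjusted p = 0.00139). FBgn0035002 went from 11.4% and 8.33% early to 99.8%, 99.8% and 100% late (12.36 ± 0.52 (SE), adjusted p = 3.81e-05).

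In other genes both TSCs gave a sizeable share of the reads at 0-2 h and the balance shifted (Adh, Nrg, kra and Act5C were chosen after their values were seen). Adh, alcohol dehydrogenase, is a textbook case of a distal and a proximal promoter, the latter the larval one. Its proximal TSC at chr2L:14616248-14616336 (plus strand) went from 33.0% and 34.5% early to 99.7%, 100% and 100% late of the reads of the pair (9.55 ± 0.75 (SE), adjusted p = 0.000262). The distal TSC at chr2L:14615519-14615591 had 123 and 61.0 RPM early and 0.581, 0 and 0 RPM late. The same TSCs were assigned to its neighbour Adhr, which is read from the same transcript, and the 2 genes therefore have the same counts. Nrg shifted from 35.7% and 34.2% early to 99.0%, 99.1% and 99.4% late toward a TSC 37360.5 bases upstream (7.53 ± 0.20 (SE), adjusted p = 1.57e-05), kra, a translation regulator, from 45.7% and 45.5% early to 88.6%, 90.1% and 95.2% late (3.26 ± 0.12 (SE), adjusted p = 2.99e-05), and Act5C, the cytoplasmic actin with a pair of known promoters, from 38.1% and 29.2% early to 57.0%, 56.7% and 49.7% late (1.48 ± 0.22 (SE), adjusted p = 0.00306).

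**Figure D4:**
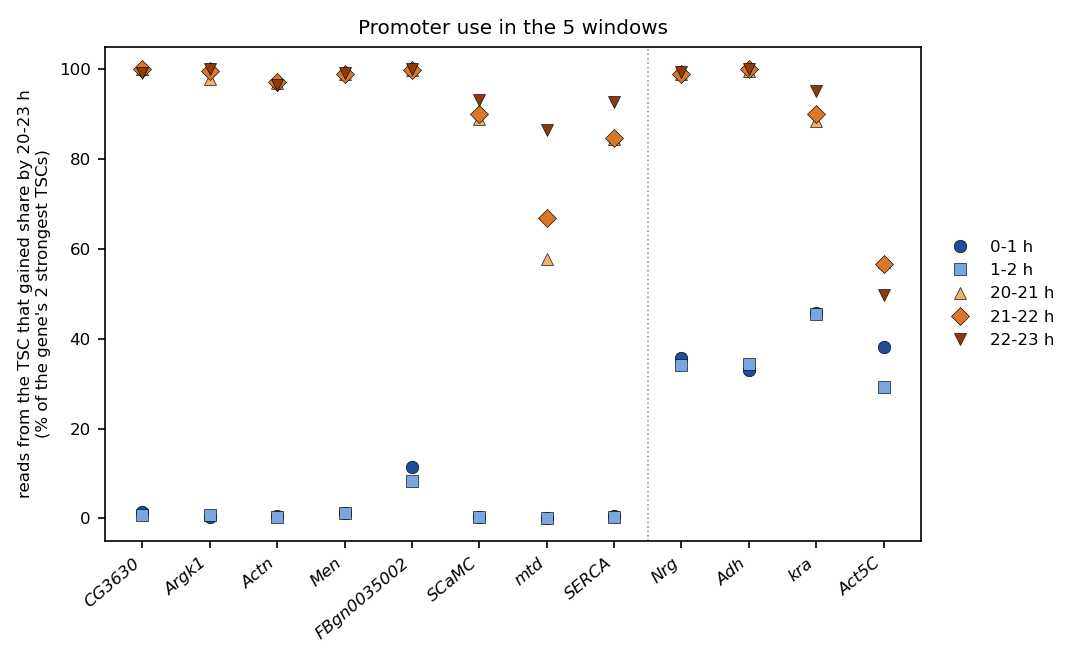
For each gene, the share of reads (in percent of the reads of its 2 strongest TSCs) from the TSC that gained share by 20-23 h, in the 5 windows (blue 0-1 h and 1-2 h, orange to brown 20-21 h, 21-22 h and 22-23 h). Left of the dotted line are the 8 genes of the naming rule, near 0% in the egg except FBgn0035002 and above 80% late except mtd. Right of it are 4 genes in which both TSCs gave a sizeable share of the reads at 0-2 h.

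The early libraries held some reads of late genes, whose origin was not tested. All 23 samples had been barcoded at reverse transcription, pooled and processed as 1 library. Among the genes higher at 20-23 h with separated stages, 292 of 1778 had no read in either early library. The 39 of them with over 100000 reads in the series all had reads at 0-2 h, with a median of 4.67 reads at 0-1 h and 6.69 at 1-2 h per 10000 reads of the same gene in the other 22 libraries. Their median level was 15.0 and 13.5 RPM, and 26 and 23 of the 39 passed 10 RPM there. In the windows from 2-3 h to 10-11 h the same genes had medians of 3.81 to 131 RPM. Among the 3397 genes at 10 RPM in all 5 libraries, 13 had fewer than 10 reads per 10000 elsewhere in both early libraries. They were Act57B, Gasp, Cpr47Eg, Cpr65Ea, Cpr78Cc, Lcp65Ag2, Lcp65Ag3, CG13043, CG13066, CG13678, CG15212, CG15282 and CG30457. Without them 3397 becomes 3384.

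Low rates were also seen at the promoters that switched. Those genes were named for the size of their change, so low early rates follow largely from that choice. The late TSC had, per 10000 reads of that TSC elsewhere, 13.5 and 11.4 reads at 0-1 h and 1-2 h in Argk1, 9.67 and 9.67 in SCaMC, 9.91 and 10.6 in SERCA and 6.48 and 9.72 in mtd. For the late TSCs of Adh and kra the rate was far above this, 912 and 857 in Adh and 654 and 1039 in kra. Adh and kra were chosen after their values were seen, with both TSCs well represented at 0-2 h. The contrast therefore follows from the choice of genes and does not bear on where the reads came from. In the opposite direction, 39 egg genes that fell by more than 6 on the log2 scale had medians of 1.74, 1.11 and 5.25 RPM at 20-21 h, 21-22 h and 22-23 h, or 13.3, 0.439 and 1.44 reads per 10000 elsewhere. In the egg these genes stood at 284 and 249 RPM, and the median had dropped to 151 RPM by 2-3 h and to 15.2 RPM by 4-5 h. What share of these reads came from other samples of the pool was not tested.

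**Figure D5:**
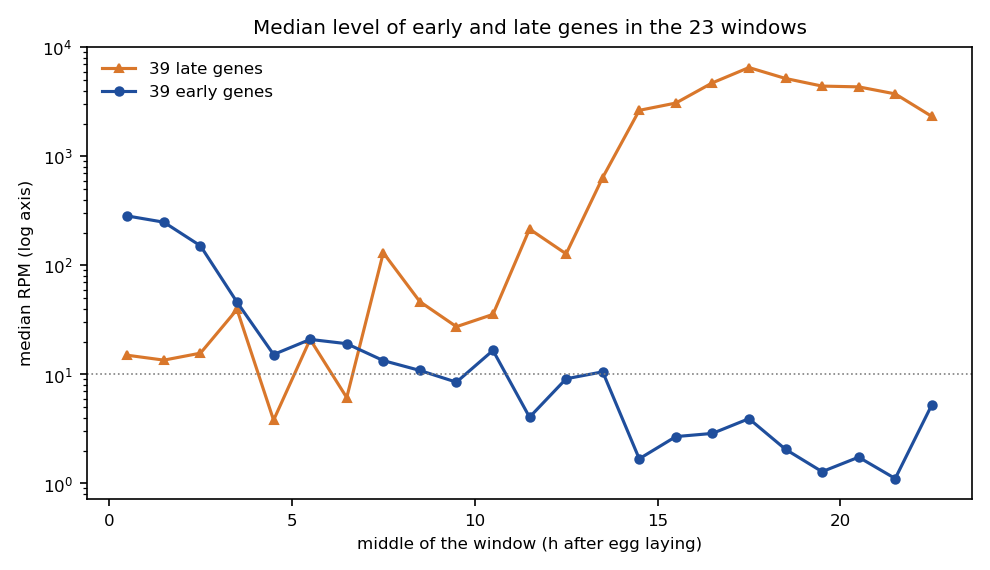
Median RPM (log axis) of 39 late genes, those higher at 20-23 h with over 100000 reads in the series, and of 39 early genes that differed by more than 6 on the log2 scale, in all 23 windows against the middle of the window in hours after egg laying. The dotted line marks 10 RPM. Late genes lie at 15.0 and 13.5 RPM in the first 2 windows and rise above 2000 RPM from 14-15 h on, and the early genes fall from 284 RPM to between 1.11 and 5.25 RPM at 20-23 h.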

How the data were processed

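RAMPAGE reads of 23 libraries of staged whole embryos had been mapped by the authors with STAR (version not given in the sources used here) to the dm3 build, clustered into TSCs over the series and assigned to genes. The deposited gene and TSC tables hold RPM, scaled by the authors to the TSC reads of each library. The deposited BED file gave other values, the TSC coordinates, of which 5 duplicated names were left out. The deposited table of aligned Z-scores was not used. All 100% of values were whole multiples of 1 read within 0.001, so reads were recovered. The row of TSCs without a gene, 0.337% to 0.514% of reads in the 5 libraries, was left out of gene tests. 1224 of 24725 TSC rows share their position with a row of another gene, and 814 genes are affected. Gene names matched 10255 of 10622 identifiers, and the others are given by identifier.

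Features with at least 10 RPM in at least 2 of 5 libraries were tested with limma 3.58.1 (R 4.3.3, trend and robust) on log2(RPM + 1), with Benjamini-Hochberg adjustment. This scale understates the change of low genes. A gene under 10 RPM throughout a stage passes the filter only through the other stage. Counts for lists of such genes therefore follow largely from the filter. Promoter use was the log2 ratio of the reads of the 2 strongest TSCs, each plus 0.5, weighted by counting variance. TMM factors came from edgeR 4.0.16, and edgeR and DESeq2 1.42.0 on recovered reads, a minimum of 25 RPM, no filter, a pseudocount of 0.1, thinning to 380700 reads (seed 11), all 23 libraries in 8 stage groups and leaving out each library were alternatives. The labels give no replicate cultures, and p-values measure the spread between windows. Treatment of PCR duplicates is not stated, so floors of 3 reads cover counting error only. Named were the 10 genes with the largest difference and the 10 most abundant in each direction among genes called in both scalings without overlap, the 10 most abundant even genes, up to 4 members per list, stage markers and 8 promoter changes whose TSC pair had at least 50 reads in every library. Members and gene lists were chosen with earlier results of these data known. Cyp1 and Cyp40, which are cyclophilins, were taken out of the P450 list and RpL37-1 was added to the ribosomal list after the files were seen. Some named results are not reported here. Fits were tested on simulated data.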

Additional observations from a re-analysis of the deposited data

How the results depend on the processing

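Counts stayed within 1.5 times of the reported ones under most alternatives. Genes higher at 0-2 h fell from 3761 to 2390 with TMM and 1891 with DESeq2, where they were 42.8% of calls, and TSCs higher at 0-2 h from 4247 to 2741 and 2120, with 6430 when no filter was used. TSCs higher at 20-23 h went from 2229 to 3749 without a filter and 1344 at a minimum of 25 RPM, where fewer TSCs were tested. Changed promoter use went from 426 to 226 at 25 RPM and 280 after thinning. Genes at both stages numbered 2183 at 25 RPM and genes at 0-2 h only 704 with TMM. Leaving out each library in turn gave 2624 to 4261 and 1642 to 1848 genes, 2953 to 4816 and 2088 to 2313 TSCs, 263 to 580 promoter changes (the lowest without 20-21 h, the highest without 0-1 h), 3425 to 3598 genes at both stages, 1145 to 1486 at 0-2 h only and 1244 to 1327 at 20-23 h only. Without 22-23 h, a choice made after seeing the data, 2588 early and 1848 late genes were called in both scalings, with 26 respiratory genes, 2 early ribosomal genes and 1 early hormone gene in place of 21, 1 and 2.

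For named results with a call in either fit, directions turned only under TMM and DESeq2. Under TMM RpL40 stood at 0.74 and RpS20 at 0.66. Under DESeq2 RpL40 stood at 1.07, RpS20 at 0.98, mod at 0.68, Cont at 0.96, mRpS9 at 0.70, mRpL55 at 0.98, Eno at 0.21, Gapdh2 at 0.19 and mRpL1 at 0.0052. Of 1746 differences and promoter ratios of named genes under the alternatives, 1611 kept their direction and call status, 57 lost the call, 38 gained one and 11 turned with a call in either fit. In another 29 the sign changed without a call in either fit. Over all 40 the sign changed for 15 genes, in 12 cases under DESeq2, 8 under edgeR, 7 under TMM, 1 after thinning and 12 on leaving out a library. They include EcR, at -0.30 with library totals and 0.45 with TMM and 0.71 with edgeR, and mod, Cont, mRpS9 and mRpL55, also above 0 under TMM and edgeR. No paired analysis was possible because replicate numbers only number successive windows. At 22-23 h levels under 7.88 RPM rest on fewer than 3 reads.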
